A study of Anser cygnoides with 18 samples.

Results

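The goose lncRNA table held 1701 long noncoding RNA (lncRNA) loci, and 571 of them (33.6%) lay beside a protein-coding gene without touching one. A locus was counted when its span overlapped no protein-coding gene of the reference annotation (AnsCyg_PRJNA183603_v1.0) and the gap to such a gene on the same scaffold was 10 kb or less. Another 487 loci overlapped a protein-coding gene, and 643 lay further than 10 kb from one, 1 of them on a scaffold with none. The rule used position only, so levels, tissue pattern, feeding response and correlation with the neighbouring gene were not part of it.

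LncRNAs are transcripts without evident protein-coding potential, and in vertebrates they are known for low levels and strong tissue preference. Those close to a gene can start from the gene's own promoter in the opposite direction, run on from the gene's last exon as part of its transcript, or be separate units with their own promoter, and position alone does not tell these apart. Several in mammals act on the gene next to them, while others share its chromatin without acting on it. The liver is the main site of fatty acid synthesis in birds, and adipose tissue stores the product, so both take part when feed intake exceeds need.

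Male Tianfu meat geese, a composite breed of Anser anser and Anser cygnoides, started a 19-day trial at 126 days of age. High-intake geese (T1 to T3) were force fed meals of growing size several times a day, control geese (C1 to C3) ate the same diet at will, and both groups went without feed for a night before sampling at 145 days. Liver (L), abdominal adipose (AA) and subcutaneous adipose (SA) of these 6 geese gave 18 libraries of ribosomal RNA-depleted total RNA, 3 in each combination. T1-L, T1-AA and T1-SA come from 1 goose, whereas T1 and C1 are different birds. Levels are FPKM, fragments per kilobase of transcript scaled to the mapped fragments of a library, obtained on the reading that the deposited values are log2(FPKM + 1), a scale that the sources used here do not name.

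One library stood apart, and another lay between it and the rest at low values. In C2-SA, 97.0% of the 571 loci reached 0.1 FPKM, against 45.5% to 86.9% in the other 17 libraries. The 86.9% was that of C3-SA, and the next highest library was C3-AA with 72.2%. The fifth percentile of the lncRNA values above 0 was 0.142 FPKM in C2-SA and 0.0124 to 0.047 elsewhere, with C3-SA at 0.047 and C3-AA next at 0.0297. The mRNA values of C2-SA summed to 107520 FPKM, against 221090 to 438340 in the others. FPKM keeps no read totals, so depth is unknown and no counting interval can be set on a level. Tissue labels were checked on marker genes: 7 hepatocyte genes summed to 13520 to 28329 FPKM in high-intake livers, 10688 to 12833 FPKM in control livers and at most 2980 FPKM in adipose. The sum of 5 adipocyte genes was 40.3 to 46.3 FPKM in high-intake livers, 15.3 to 27.4 FPKM in control livers and 1009 (in C2-SA) to 5979 FPKM in adipose. In bulk tissue, a change in the number of cells of a type and a change in RNA per cell cannot be told apart. P-values of limma below rest on the spread between the 3 geese of a group, drawn toward a trend over all features. Those of permutation tests run over the 6 geese of both feeding groups together.

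The 571 loci lay on 225 scaffolds at gaps of 6 to 9917 bp, with a median of 2518 bp. Upstream of the nearest gene there were 291 and downstream 280. A gap of 1 kb or less was found for 148 loci, 69 of them upstream and 79 downstream, and 427 had a gap of 5 kb or less. For 365 loci the nearest gene was the sole one within 10 kb, and the other 206 had more than 1. The 571 loci had 548 different nearest genes, 67 loci were nearest to a gene with a LOC name only, and for 570 loci the nearest gene was found in the mRNA table. Locus spans had a median of 3154 bp (479 to 83477 bp), and 13 loci overlapped an annotated lncRNA gene. Just inside the limit were the loci near MON2 (9803 bp), CCDC63 (9862 bp) and SLC38A4 (9917 bp), and just outside were those near APCDD1 (10005 bp), RPGR (10077 bp) and SLCO2A1 (10124 bp).

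Some table entries shared 1 span. At 10 spans, 21 of the 571 entries had the same start and end as another, which made 12 pairs, and the table gives no strand or exon structure to separate them. XLOC_184458 and XLOC_185365 both lie at NW_013185715.1, 247836 to 248504, 1574 bp upstream of ASB9, a subunit of a ubiquitin ligase. Yet their levels moved in opposite directions: the deviations from group means had r = -0.65 over the 18 libraries. The pair near SAT1, which acetylates spermidine, had r = -0.67, and the pair near ACADM, the medium-chain acyl-CoA dehydrogenase, differed 8.45-fold in mean level. Values of entries at 1 shared span are therefore uncertain, since it is not known how reads were divided between them.

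Median levels were low and depended on the gap. The median of the 571 mean levels over 18 libraries was 0.234 FPKM, against 7.19 FPKM for their nearest genes and 3.75 FPKM for all mRNAs. At gaps of up to 1 kb the median was 0.391 FPKM (148 loci), and it was 0.203 FPKM at 1 to 2.5 kb (136 loci), 0.198 FPKM at 2.5 to 5 kb (143 loci) and 0.171 FPKM at 5 to 10 kb (144 loci). So the higher level was limited to the first class, and within it downstream loci had 0.459 FPKM and upstream loci 0.375 FPKM. Means above 1 FPKM were reached by 72 loci, 33 of them within 1 kb, and means above 10 FPKM by 11. These medians are descriptions over loci, with no test between gap classes.

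**Figure D1:**
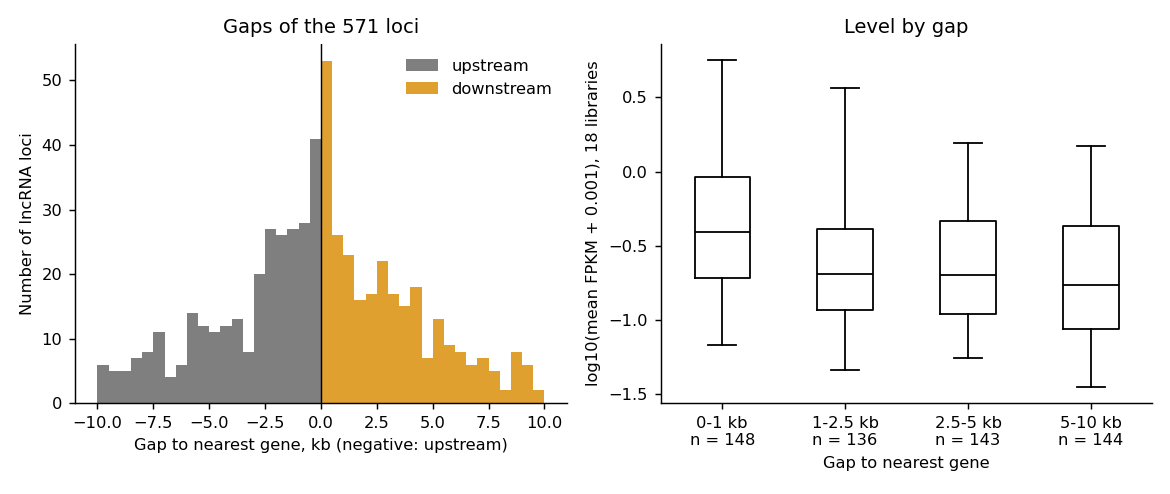
Left, number of the 571 lncRNA loci by signed gap to the nearest protein-coding gene in kb (upstream negative). Right, log10 of the mean FPKM over the 18 libraries (0.001 added) by gap class (line, median; box, quartiles; whiskers, 5th to 95th percentiles), with medians at 0.391, 0.203, 0.198 and 0.171 FPKM from the shortest to the longest gaps.

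The loci beside genes ranked between the other classes of lncRNA in every goose. Their median log2(FPKM + 0.1) was above that of loci further than 10 kb away by 0.91 in liver, 1.07 in AA and 0.82 in SA, each time in 6 of 6 geese. Against loci that overlapped a gene it was lower by 0.21, 0.81 and 0.58 in these tissues (mean differences of -0.21, -0.81 and -0.58), again in 6 of 6 geese. Each of the 6 comparisons gave p = 0.03125 in an exact two-sided sign-flip permutation test over geese, the smallest that 6 geese allow, and 0.03125 after BH (Benjamini-Hochberg) adjustment over the 6. The liver difference from overlapping loci did not pass when means over loci replaced medians (-0.08) or with a limit of 5 kb (-0.09).

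Fewer loci reached 0.1 FPKM in liver than in adipose. A mean above 0.1 FPKM was reached by 320 loci in liver, while abdominal adipose had 404 and subcutaneous adipose 491, the last falling to 403 without C2-SA. All 3 tissues were reached by 257 loci, none by 36, and liver alone by 29. The median level was 0.0925 ± 0.0224 FPKM in high-intake livers and 0.106 ± 0.00995 FPKM in control livers (SD, n = 3 each). In abdominal adipose it was 0.196 ± 0.0162 FPKM in high-intake and 0.212 ± 0.0296 FPKM in control geese, and in subcutaneous adipose 0.181 ± 0.0163 FPKM in high-intake and 0.327 ± 0.144 FPKM in control geese. The feeding groups overlapped in liver and abdominal adipose, and the wide spread of control subcutaneous adipose came with C2-SA at 0.486 FPKM.

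**Figure D2:**
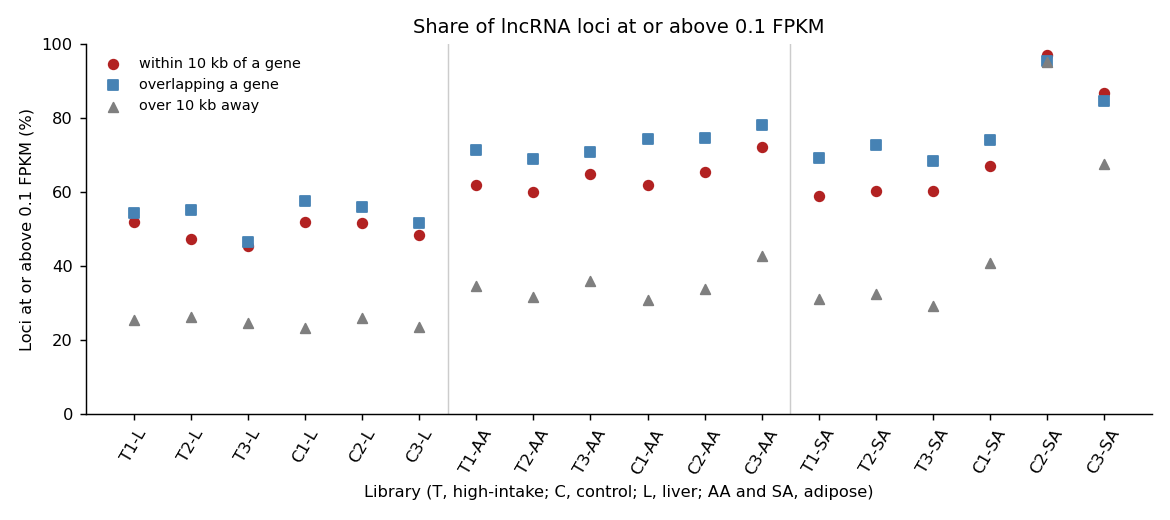
Share of loci at or above 0.1 FPKM in each of the 18 libraries, in percent, for loci beside genes, loci overlapping a gene and loci further than 10 kb away. Among the 571 loci beside genes the share was 45.5% to 52.0% in livers, and C2-SA was highest at 97.0%.

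The locus with the highest mean, 138 FPKM, was XLOC_339761 at NW_013185914.1, 1326 to 9060, 7952 bp downstream of LOC106047475. Its liver values were 9.95, 75.5 and 662 FPKM in T1-L, T2-L and T3-L, against 13.5, 6.55 and 20.4 FPKM in C1-L, C2-L and C3-L. Abdominal adipose had 35.9, 202 and 253 FPKM in high-intake and 41.7, 179 and 210 FPKM in control geese, and subcutaneous adipose had 31.8, 174 and 236 FPKM in high-intake and 52.3, 156 and 133 FPKM in control geese. Geese T1 and C1 were lowest in both adipose tissues, whereas in liver the lowest of each feeding group were T1-L and C2-L. The feeding groups overlapped in all 3 tissues. LOC106047475 itself stayed at or below 0.422 FPKM in all 18 libraries. Since 1 locus supplied 662 FPKM of the 1068 FPKM that the 571 loci summed to in T3-L, sums over loci are not used below.

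The next highest means were 43.9 FPKM for XLOC_073964 (319 bp downstream of LOC106031559), 41.3 FPKM for XLOC_332279 (1390 bp upstream of SLC25A10, the mitochondrial dicarboxylate carrier), 28.4 FPKM for XLOC_209712 (869 bp upstream of UBE2G2, a ubiquitin-conjugating enzyme of endoplasmic reticulum protein degradation) and 21.6 FPKM for XLOC_232890 (536 bp downstream of UBAC1). XLOC_332279 exceeded its neighbour in every library. It had 99.6, 61.2 and 35.1 FPKM in high-intake livers and 31.2, 20.4 and 23.0 FPKM in control livers, where SLC25A10 had 7.00, 2.04 and 3.09 FPKM in the high-intake and 2.49, 2.33 and 1.76 FPKM in the control group. The groups did not overlap in liver, and the log2 change of 1.29 (SE 0.47) had an adjusted p of 0.203 (limma, BH), past no threshold. In abdominal adipose the change was 1.10 (SE 0.36, adjusted p = 0.256) and in subcutaneous adipose 1.75 (SE 0.68, adjusted p = 0.283), with C2-SA lowest at 4.84 FPKM.

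Tissue was compared within each feeding group with limma on log2(FPKM + 0.1), with BH adjustment over all lncRNAs tested and a threshold of 0.05. These fits did not use the goose as a block, although both tissues came from the same birds. Liver against abdominal adipose called 195 of 396 loci in high-intake geese (42 higher in liver, 153 lower), where 53.9% of all lncRNAs tested were called (11.7% higher, 42.2% lower), and 194 of 398 in control geese (44 and 150, beside 56.6%, 12.3% and 44.4% of all lncRNAs). Liver against subcutaneous adipose called 172 of 383 in high-intake geese (41 higher, 131 lower, beside 48.8%, 11.8% and 36.9% of all lncRNAs) and 178 of 504 in control geese (19 and 159, beside 38.2%, 4.35% and 33.8%). The shares of loci called were 49.2%, 48.7%, 44.9% and 35.3% in this order, each below the share of all lncRNAs. When each library was centred on its mRNA median, which is lower in liver (1.60 to 1.73 on the log2(FPKM + 1) scale) than in adipose other than C2-SA (2.08 to 2.36), the calls became 52 higher and 80 lower, 52 and 96, 49 and 76, and 16 and 38 in the same order. Without a single control liver or C3-SA the last comparison called 80 to 86 loci. Calls over all lncRNAs also fell after centring. In high-intake geese, 132 of 396 loci were then called against abdominal adipose, beside 368 of 1008 lncRNAs. Against subcutaneous adipose these were 125 of 383 loci, beside 368 of 996 lncRNAs.

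Called the same way in all 4 liver-adipose comparisons were 16 loci higher in liver and 61 lower, of 328 tested in all 4. Among all lncRNAs these numbers were 39 and 185 of 822. The 4 comparisons share their livers in pairs, so the count is a description and not a further test. For 13 of the 16 and 55 of the 61, the 6 livers did not overlap with the 12 adipose libraries. Among all lncRNAs this held for 29 of the 39 and 170 of the 185. Centring left 15 higher (14 of them among the 16) and 21 lower, all 21 among the 61, and without C2-SA the numbers were 15 and 64, with 15 and 55 in common. This setting was chosen after the data had been seen.

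The largest differences in favour of liver included loci beside liver transcription factors. XLOC_260064 (NW_013185774.1, 1053927 to 1058586) lies 2005 bp downstream of FOXA2, a forkhead factor that establishes hepatic gene expression. It had 9.07, 1.12 and 14.5 FPKM in high-intake livers and 2.03, 6.12 and 2.39 FPKM in control livers, and no adipose library exceeded 0.184 FPKM. FOXA2 was likewise higher in livers, at 4.55 to 10.7 FPKM against at most 1.60 FPKM in adipose. Log2 differences of XLOC_260064 ranged from 4.31 (SE 0.50) for liver against abdominal adipose in control geese to 5.44 (SE 0.89) for the same comparison in high-intake geese, with adjusted p of 6.0e-04 and 0.0033 (limma, BH). The feeding groups overlapped in liver.

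XLOC_023322 (NW_013185657.1, 954333 to 965646) lies 2993 bp downstream of R3HDML and 3184 bp from HNF4A, the nuclear receptor that drives hepatocyte metabolic genes. Its livers had 3.37, 1.38 and 1.55 FPKM in the high-intake group and 4.05, 7.87 and 1.99 FPKM in controls, against at most 0.293 FPKM in adipose. R3HDML did not share the pattern, with 0.0284 to 0.406 FPKM in livers and 0 to 0.660 FPKM in adipose. So the nearest gene of this locus did not share its tissue preference.

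XLOC_176647, 88 bp downstream of the sialyltransferase gene ST8SIA5, had 6.96 to 22.1 FPKM in livers (median 13.2) and 0.203 to 0.966 FPKM in adipose. ST8SIA5 had 9.67 to 37.4 FPKM in livers and 0.273 to 1.21 FPKM in adipose, so that locus and gene differed between tissues to a similar degree (4.60 and 3.84 on their log2 scales). XLOC_034059, 9917 bp upstream of SLC38A4, an amino acid transporter of hepatocytes, had 1.42 to 5.24 FPKM in livers and at most 0.714 FPKM in adipose. SLC38A4 reached 142 to 388 FPKM in livers and at most 6.13 FPKM in adipose. XLOC_080387, 2299 bp upstream of SLF2, a recruiter of the SMC5-SMC6 complex to damaged DNA, had 4.71 to 32.5 FPKM in livers, was listed at 0 in 8 of 12 adipose libraries and had its highest adipose value, 1.33 FPKM, in C2-SA. SLF2 overlapped between the tissues, with 7.74 to 13.0 FPKM in livers and 4.70 to 13.7 FPKM in adipose.

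Loci lower in liver were led by XLOC_270010 and XLOC_069831. XLOC_270010 (NW_013185785.1, 2561339 to 2561817), 928 bp downstream of the actin-binding drebrin gene DBN1, was listed at 0 in 5 livers and had 0.419 FPKM in T2-L, beside 1.54 to 24.4 FPKM (median 9.81) in adipose. XLOC_069831 (NW_013185666.1, 980887 to 982449) lies 498 bp downstream of UNG, which removes uracil from DNA, and 3034 bp from ACACB, the acetyl-CoA carboxylase of the mitochondrial surface. It was listed at 0 in all 6 livers and had 3.75, 3.35 and 8.04 FPKM in high-intake and 5.67, 9.64 and 7.81 FPKM in control abdominal adipose. No adipose library fell into the liver range, the lowest being C2-SA at 1.24 FPKM. UNG was also lower in livers, at 2.62 to 4.89 FPKM, against 18.1 to 108 FPKM in adipose.

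XLOC_283068, 4320 bp downstream of the adhesion molecule gene NEGR1, had at most 0.0258 FPKM in livers and 1.27 to 11.3 FPKM in adipose, and NEGR1 had 0.0272 to 0.107 FPKM in livers and 8.03 to 42.0 FPKM in adipose. XLOC_332405, 2927 bp downstream of the RNA helicase gene DHX30, had 0.0544 to 1.28 FPKM in livers and 2.35 to 17.2 FPKM in adipose. Both genes differed in the direction of their locus. XLOC_232887, 115 bp downstream of the transcriptional repressor gene NACC2, had 0.374 to 1.66 FPKM in livers and 4.92 to 55.4 FPKM in adipose, and XLOC_116409, 120 bp downstream of LOC106034313, had 0.599 to 1.41 FPKM in livers and 15.6 to 48.8 FPKM in adipose. All 12 loci named for liver against adipose were still called in all 4 comparisons after centring (the 12th, XLOC_185365 near ASB9, had 11.7 to 32.9 FPKM in livers and 0.294 to 9.06 FPKM in adipose). They were picked as the largest differences without overlap among loci called in all 4, which left little room for a loss.

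Nearest genes mostly differed between tissues in the direction of their locus. Of the 16 loci higher in liver, 14 had a nearest gene with a higher mean log2(FPKM + 1) in liver, and of the 61 lower ones, 4 did. Over all 438 pairs with both means above 0.1 FPKM, 35.8% of the nearest genes were higher in liver, and over all mRNAs 32.9%. The exceptions among the 16 were SLF2 and PCF11. R3HDML counts among the 14 on a difference of 0.09, although its livers and adipose libraries overlapped. Loci further than 10 kb from a gene gave 11 of 14 and 4 of 42. Genes are not independent replicates, and no test was made on these counts.

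**Figure D3:**
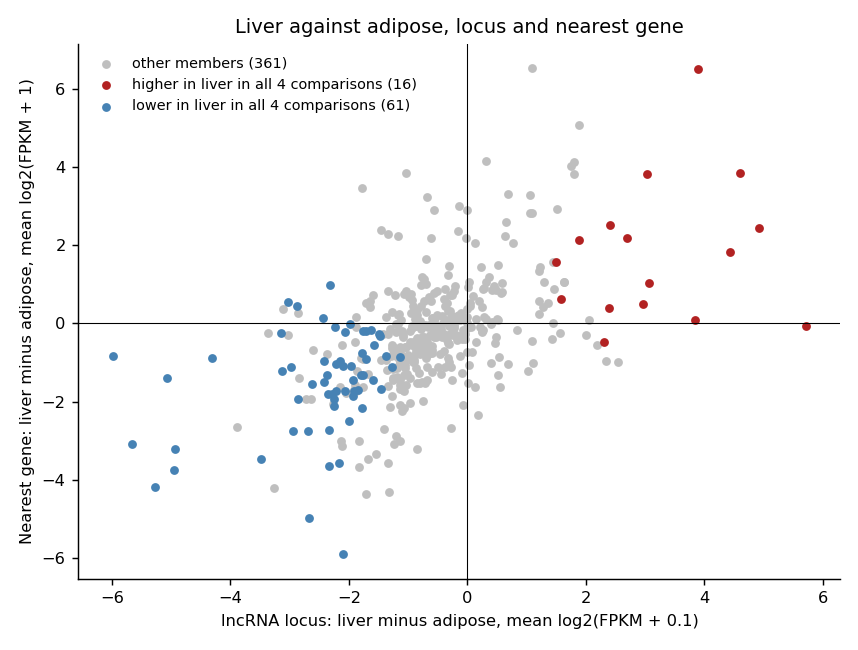
Liver minus adipose difference of mean log2 level for 438 loci (x axis, log2(FPKM + 0.1)) and their nearest genes (y axis, log2(FPKM + 1)). Red points are the 16 loci called higher in liver in all 4 comparisons, of which 14 lie above 0 on the y axis, blue points the 61 called lower, of which 4 do, and grey points the other 361.

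Few loci were called between the adipose tissues. Abdominal against subcutaneous adipose called 0 of 373 loci in high-intake geese (limma, 16 at an unadjusted p under 0.05) and 2 of 511 in control geese, where 0.209% of all lncRNAs were called, 0.0696% higher in abdominal adipose and 0.139% lower. In control geese 61 loci had an unadjusted p under 0.05 (125 without C1-SA), and the median difference of -0.27 was 0.02 without C2-SA. These 61 were 11.9% of the loci tested, beside 13.9% of all lncRNAs, and the 16 of high-intake geese 4.29%, beside 4.41%. XLOC_052706, 3280 bp upstream of PTP4A1, a phosphatase of regenerating liver, had 6.58, 13.3 and 11.0 FPKM in control abdominal adipose and 0.850, 1.41 and 1.36 FPKM in control subcutaneous adipose. This difference of 2.97 on the log2 scale (SE 0.41, adjusted p = 0.013, limma) ran beside PTP4A1 at 263, 335 and 281 FPKM in abdominal and 80.2, 79.7 and 69.5 FPKM in subcutaneous adipose. In high-intake geese the locus had 9.75, 6.46 and 10.6 FPKM in abdominal and 5.63, 3.34 and 2.66 FPKM in subcutaneous adipose, without overlap but not called.

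XLOC_319433, 3228 bp downstream of the ribosomal protein gene RPL37A, was lower in abdominal adipose of control geese, with 0.0585, 0.0410 and 0.0800 FPKM in C1-AA, C2-AA and C3-AA against 1.01, 0.869 and 0.881 FPKM in C1-SA to C3-SA. The difference of -2.68 on the log2 scale (SE 0.37) had an adjusted p of 0.013 (limma). High-intake geese had 6.81, 0.0921 and 1.36 FPKM in abdominal and 14.4, 0.536 and 1.42 FPKM in subcutaneous adipose, so the birds of that group differed more than the tissues. Neither of these 2 calls held with a pseudocount of 1 (adjusted p = 0.080 for both). With the goose as a block both remained among 4 calls (adjusted p = 4.8e-04 near PTP4A1 and 0.0023 near RPL37A). Leaving out C2-AA, C3-AA or C3-SA gave 0 calls and leaving out C1-SA gave 5.

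Few loci passed the test for high-intake feeding. In liver 3 of 320 loci were called, all higher in high-intake geese, where 1.23% of all lncRNAs tested were called (0.739% higher, 0.493% lower), and 51 of the 320 had an unadjusted p under 0.05. In abdominal adipose 1 of 404 was called (higher, beside 0.393% of all lncRNAs, of which 0.0981% were higher and 0.294% lower, and 41 at an unadjusted p under 0.05), and in subcutaneous adipose 0 of 491 (limma, 0% of all lncRNAs, 68 at an unadjusted p under 0.05). The 51, 41 and 68 loci were 15.9%, 10.15% and 13.8% of those tested. Among all lncRNAs the shares at that p were higher in each tissue, at 19.6%, 13.9% and 16.1% (limma). The median log2 change of the loci was -0.22 in liver, while abdominal adipose had -0.17 and subcutaneous adipose -0.42, close to the -0.29, -0.24 and -0.44 of all lncRNAs. These medians moved with single libraries, to -0.13 in liver without C1-L, -0.08 in AA without T2-AA, -0.11 in AA without C3-AA and -0.16 in SA without C2-SA, and centring gave -0.34 in AA and -0.77 in SA. Feeding groups did not overlap for 81 loci in liver (25.3%, beside 28.8% of all lncRNAs), 75 loci in AA (18.6%, beside 20.5%) and 123 loci in SA (25.1%, beside 25.7%).

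The strongest response was that of XLOC_233930 (NW_013185749.1, 2139183 to 2141542), 4275 bp downstream of RBBP8NL and 6714 bp from CABLES2. In abdominal adipose it had 1.47, 2.1 and 2.64 FPKM in T1-AA, T2-AA and T3-AA, against 0.110, 0.121 and 0.142 FPKM in C1-AA, C2-AA and C3-AA. The groups lay far apart, and the rise of 3.24 on the log2(FPKM + 0.1) scale (SE 0.32, adjusted p = 0.0032, limma) held when each of the 6 libraries was left out in turn (3.05 to 3.45, adjusted p 0.0087 to 0.031). Subcutaneous adipose had 0.813, 1.44 and 1.12 FPKM in high-intake geese and 0.283, 0.216 and 0.150 FPKM in controls, also without overlap, and there the change of 1.94 (SE 0.42) had an adjusted p of 0.138. Livers were listed at 0 except T1-L with 0.0372 FPKM. RBBP8NL was nearly silent, at no more than 0.0576 FPKM in any library. Marker sums also lay apart in abdominal adipose: the adipocyte genes summed to 5203 to 5979 FPKM in high-intake and 3088 to 4342 FPKM in control geese, and 3 nerve genes to 2.90 to 6.62 FPKM in high-intake and 0.665 to 1.77 FPKM in control geese, and their part in the rise was not tested.

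In liver, XLOC_035948 (NW_013185659.1, 6589014 to 6591505), 8622 bp upstream of the saccharopine dehydrogenase-like gene SCCPDH, had 0.533, 0.501 and 0.358 FPKM in T1-L, T2-L and T3-L, against 0.0350, 0.0237 and 0.0170 FPKM in C1-L, C2-L and C3-L. It rose by 2.16 on the log2 scale (SE 0.32, adjusted p = 0.035, limma). SCCPDH was abundant and more variable, at 288, 117 and 382 FPKM in high-intake and 107, 153 and 43.0 FPKM in control livers, and its change of 1.39 (SE 0.58) had an adjusted p of 0.197. In adipose the locus was highest in C2-SA, at 0.401 FPKM.

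XLOC_307738 (NW_013185840.1, 570052 to 576315) lies 1101 bp downstream of GADD45G, a growth arrest gene induced by stress. High-intake livers had 0.501, 0.889 and 0.694 FPKM and control livers 0.0774, 0.155 and 0.0618 FPKM, a rise of 2.0 on the log2 scale (SE 0.35, adjusted p = 0.047, limma). GADD45G itself overlapped between the groups, with 63.0, 83.2 and 23.8 FPKM in high-intake and 95.3, 29.6 and 23.1 FPKM in control livers. XLOC_239026 (NW_013185753.1, 474103 to 476931), 1466 bp upstream of LOC106041042, had 0.303, 0.975 and 1.53 FPKM in high-intake livers and was listed at 0 in all 3 control livers. Its fitted change of 3.16 (SE 0.53, adjusted p = 0.042, limma) depends on the pseudocount and is no bound on a fold.

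The 3 liver calls depended on the settings. All 3 loci passed the filter on a mean above 0.1 FPKM through their high-intake livers, as control livers lay mostly below that level. The filter thus admitted them by the group in which they were high. With a pseudocount of 1 or without the filter on low values none of the 3 passed, after centring XLOC_035948 alone did (adjusted p = 0.033), and the fits without 1 of the 6 livers called 0 or 1 locus, which was 1 of the 3 only in the fit without T1-L. All 3 loci were below 2 FPKM in every library, and marker levels moved with feeding in the same livers: 4 lymphocyte genes summed to 10.3 to 14.6 FPKM in high-intake and 20.8 to 26.7 FPKM in control livers, 5 endothelial genes to 25.5 to 28.7 FPKM in high-intake and 35.2 to 52.7 FPKM in control livers, and the adipocyte genes as given above. Their part in these changes was not tested.

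**Figure D4:**
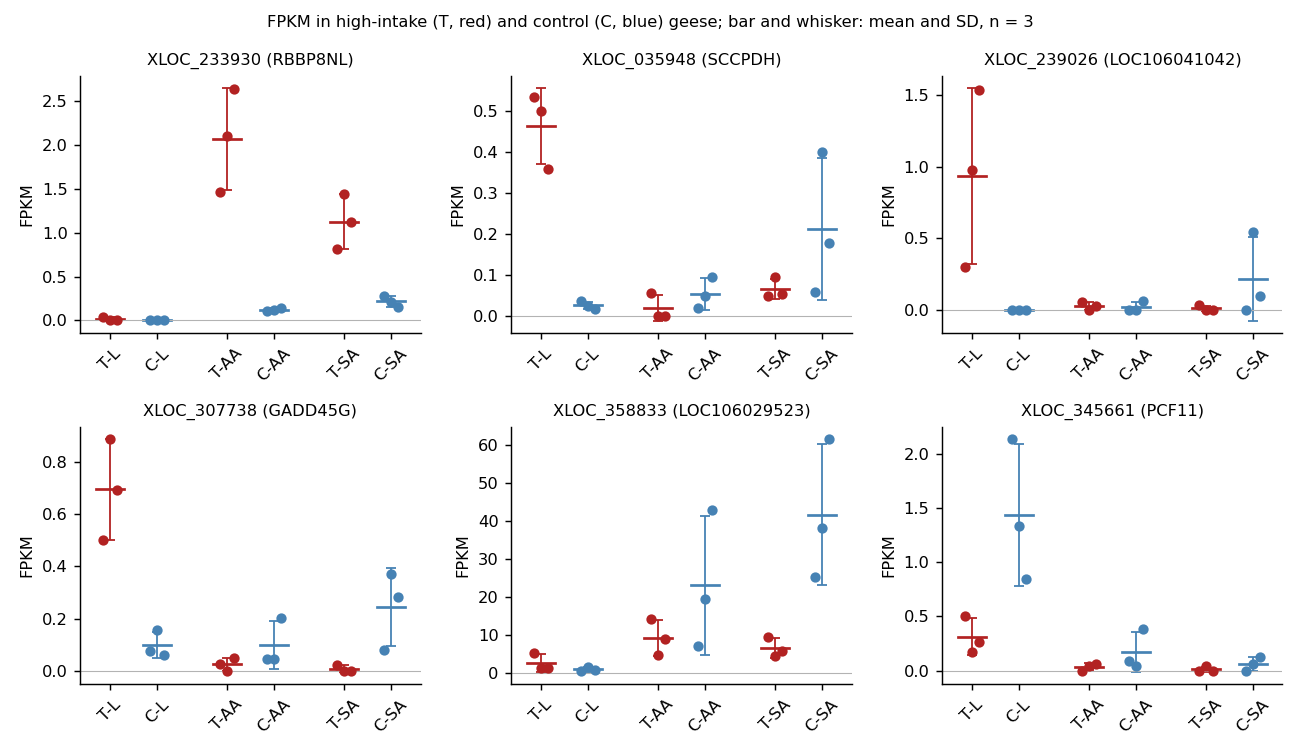
FPKM of 6 loci in high-intake (red, left) and control (blue, right) geese by tissue; points are libraries, bars the mean and SD (n = 3). XLOC_233930 had 1.47 to 2.64 FPKM in high-intake and 0.110 to 0.142 FPKM in control abdominal adipose, and XLOC_345661 0.173 to 0.503 FPKM in high-intake and 0.844 to 2.14 FPKM in control livers.

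Among the loci with larger means, the next liver differences missed the threshold. XLOC_281198, 3194 bp downstream of the interleukin-10 receptor subunit gene IL10RB, had 1.31, 0.608 and 3.68 FPKM in high-intake and 0.158, 0 and 0.142 FPKM in control livers (log2 change 3.08, SE 0.67, adjusted p = 0.085, limma). Lower values in high-intake livers were found for XLOC_345661, 3512 bp upstream of PCF11, which acts in cleavage of pre-mRNA and termination. It had 0.503, 0.173 and 0.260 FPKM in high-intake and 2.14, 1.33 and 0.844 FPKM in control livers (-1.89, SE 0.45, adjusted p = 0.099). Here the neighbouring gene did fall: PCF11 had 4.40, 3.92 and 4.17 FPKM in high-intake and 8.49, 8.59 and 9.38 FPKM in control livers (-0.93, SE 0.14, adjusted p = 0.037, limma).

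A similar pair was XLOC_033386, 3283 bp downstream of the methionine sulfoxide reductase gene MSRB3. Its high-intake livers had 1.13, 0.477 and 0.738 FPKM and its control livers 2.84, 1.59 and 3.24 FPKM (-1.60, SE 0.42, adjusted p = 0.114, limma), without overlap. MSRB3 fell as well, with 12.6, 9.05 and 15.2 FPKM in high-intake and 28.7, 28.8 and 31.7 FPKM in control livers (-1.24, SE 0.21, adjusted p = 0.043). XLOC_135203, 1284 bp downstream of the calcium sensor gene NCALD, was lower without overlap in liver (0.415, 0.249 and 0.300 FPKM in high-intake against 1.34, 0.691 and 1.05 FPKM in control geese, adjusted p = 0.101) and in abdominal adipose (0.321, 0.382 and 0.698 FPKM in high-intake against 1.65, 1.70 and 0.915 FPKM in control geese, adjusted p = 0.188, limma). NCALD missed the threshold in liver at -0.90 (SE 0.18, adjusted p = 0.055).

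Further loci that did not overlap between feeding groups in liver lay near LRP12, FBXO21, ASB9, SLC38A4, SLC16A12, PNPLA7 and IRF8. Those near the F-box gene FBXO21 (log2 change 1.39), SLC38A4 (1.17), the lysophospholipase gene PNPLA7 (2.41) and the myeloid transcription factor gene IRF8 (1.67) were higher in high-intake livers, and those near LRP12 (-2.04), ASB9 (XLOC_184458, -2.42) and the monocarboxylate transporter gene SLC16A12 (-1.62) lower, with adjusted p of 0.095 to 0.234 (limma). SLC38A4 itself had 347, 249 and 388 FPKM in high-intake and 143, 142 and 146 FPKM in control livers (1.16, SE 0.22, adjusted p = 0.0501), just above the threshold. Its locus, XLOC_034059, had 4.26, 5.09 and 5.24 FPKM in high-intake and 1.42, 2.59 and 2.5 FPKM in control livers.

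In abdominal adipose the loci next in size after XLOC_233930 were not called. The first of them was XLOC_319433 near RPL37A, higher in high-intake geese without overlap, although T2-AA lay just above the controls (values above). The next was near LOC106049350. XLOC_356480, 2923 bp upstream of LOC106049350, had 0.9, 2.1 and 0.978 FPKM in high-intake and 0.0488, 0.0658 and 0.244 FPKM in control geese (log2 change 2.71, SE 0.46, adjusted p = 0.065, limma). XLOC_257859, 318 bp upstream of the phosphatase gene PTP4A3, had 12.6, 30.8 and 20.8 FPKM in high-intake and 10.2, 6.77 and 5.78 FPKM in control geese (1.43, SE 0.42, adjusted p = 0.214). PTP4A3 pointed the same way, with 8.43, 15.7 and 10.9 FPKM in high-intake against 5.67, 6.41 and 4.46 FPKM in control geese (0.93, SE 0.24, adjusted p = 0.132). Other loci without overlap there lay near MPDZ (1.68) and SLC25A10 (1.10) with higher values and near NCALD (-1.44), PDE3B (-1.12), the insulin-regulated phosphodiesterase of adipocytes, and TSC22D2 (-1.06) with lower ones.

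Subcutaneous adipose, where no locus was called, still held an abundant locus with separate groups. XLOC_358833 (NW_013186236.1, 13894 to 21096), 3506 bp downstream of LOC106029523, had 9.41, 4.39 and 5.61 FPKM in T1-SA to T3-SA, against 25.1, 38.1 and 61.8 FPKM in C1-SA to C3-SA. The change of -2.65 (SE 0.53) had an adjusted p of 0.138 (limma), and of 8.9e-07 once libraries were centred. Abdominal adipose overlapped, at 14.1, 4.64 and 8.88 FPKM in high-intake and 6.94, 19.3 and 43.0 FPKM in control geese. LOC106029523 was lower in high-intake subcutaneous adipose, with 0, 0.0707 and 0.0798 FPKM in high-intake and 0.0930, 1.12 and 0.745 FPKM in control geese (-0.60, SE 0.17, adjusted p = 0.022, limma), C2-SA being highest. The gene passed the filter on a mean above 0.1 FPKM through C2-SA and C3-SA alone. Limma gave it the spread of the fitted trend in place of its own, and it was not called without C2-SA.

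XLOC_025881, 1731 bp upstream of the death receptor adaptor gene FADD, was listed at 0 in all 3 high-intake libraries of subcutaneous adipose and had 0.740, 3.33 and 0.220 FPKM in C1-SA to C3-SA. Its adjusted p was 0.164 in limma and 0.0096 after centring. The filter on a mean above 0.1 FPKM admitted it through its control libraries alone, so these values are no independent support. The third locus called after centring was XLOC_185365 near ASB9 (adjusted p = 0.0040), whose groups overlapped at 0.294, 7.91 and 0.857 FPKM in high-intake and 9.06, 6.88 and 2.77 FPKM in control geese. Centring raises the values of C2-SA, the library with the lowest mRNA median, and all 3 calls were lower in high-intake geese. Loci with higher values in high-intake subcutaneous adipose and no overlap included those near PTP4A1 (1.57), PLEKHO2 (1.36) and ATL1 (1.83), with adjusted p of 0.264 to 0.271 (limma). Marker sums lay apart by feeding in this tissue too. The 5 adipocyte genes summed to 4471 to 5296 FPKM in high-intake and 1009 to 3633 FPKM in control geese. In the same order, 4 keratinocyte genes had 154 to 189 and 51.0 to 150 FPKM. The 3 nerve genes had 4.38 to 4.71 and 1.65 to 2.26 FPKM, and 3 muscle genes 4.12 to 11.9 and 2.52 to 3.53 FPKM. Their part in these differences was not tested.

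Feeding responses were compared between tissues in a limma fit with the goose as a block. Liver against abdominal adipose called 1 of 409 loci (0.282% of all lncRNAs, 0.0941% with a higher and 0.188% with a lower response in liver), XLOC_233930, whose response was lower in liver by 3.09 on the log2 scale (difference -3.09, SE 0.46, adjusted p = 0.048). Liver against subcutaneous adipose called 2 of 466 (0.646% of all lncRNAs, each with a higher response in liver): XLOC_307738 near GADD45G, with a difference of 3.58 (SE 0.54, adjusted p = 0.047), and XLOC_358833, with 3.81 (SE 0.65, adjusted p = 0.048). For XLOC_307738 the subcutaneous values were 0.0226, 0 and 0 FPKM in high-intake and 0.0809, 0.369 and 0.282 FPKM in control geese, so the groups lay apart in opposite directions in both tissues. For XLOC_358833 the livers had 5.31, 1.11 and 1.16 FPKM in high-intake and 0.515, 1.58 and 0.606 FPKM in control geese, with overlap. Abdominal against subcutaneous adipose called 0 of 451 (limma, 42 at an unadjusted p under 0.05). These 42 were 9.31% of the loci tested, beside 10.13% of all lncRNAs. Leaving out 1 goose left 0 to 2 calls and 0 or 1 call in the first and second comparison, and XLOC_233930 was not called in any of those 6 fits (adjusted p 0.067 to 0.169).

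Few of the nearest genes were called for feeding themselves. In liver 10 of 496 were called, 5 higher and 5 lower, beside 2.19% of all mRNAs (1.27% higher, 0.919% lower), in abdominal adipose 1 of 522 (higher, as were 0.0878% of all) and in subcutaneous adipose 6 of 526 (4 higher and 2 lower, beside 2.13%, 1.18% and 0.95%). In liver KPNA2, UHRF1, RAB20, SNTB1 and PHYH rose and CD8A, PCF11, TINAG, TAPT1 and MSRB3 fell, and TFRC, the transferrin receptor gene, rose in both adipose tissues. The remaining subcutaneous calls were KPNA2, DBN1 and SCNN1B (higher) and LOC106041660 and LOC106029523 (lower), with limma giving every mRNA of that tissue the spread of the fitted trend. In no tissue was a locus called together with its nearest gene. With 3, 1 and 0 loci called in liver, abdominal and subcutaneous adipose, few such pairs were possible, so this says little about the pairs. The count of nearest genes called in liver was 0 without any 1 of the control livers and 19 after centring, so it depended on single birds and on the scaling. In abdominal adipose TFRC was still called without C1-AA and in none of the other 5 fits that left out 1 library. Without C2-SA none of the 6 subcutaneous genes was called, 1 other nearest gene was, and the calls over all mRNAs of that tissue numbered 4 in place of 283.

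PHYH, the peroxisomal hydroxylase of phytanoyl-CoA, had 94.3, 70.3 and 52.6 FPKM in high-intake and 21.8, 25.6 and 19.7 FPKM in control livers (1.62, SE 0.24, adjusted p = 0.033, limma). Its locus XLOC_322323, 330 bp upstream, had 0.505, 0.335 and 0.362 FPKM in high-intake and 0.111, 0.166 and 0.0442 FPKM in control livers (1.30, SE 0.36, adjusted p = 0.121), also without overlap. KPNA2, which encodes an importin, rose by 2.33 in liver while its locus XLOC_121492 had a log2 change of -0.73 (SE 0.47, adjusted p = 0.402). TINAG fell by 1.78 while XLOC_053146, 5956 bp upstream, had a change of 0.44 (adjusted p = 0.593). Of the 8 liver genes whose locus was tested, 4 had a locus with a change of the same sign. Loci near PCF11, MSRB3 and PHYH had an unadjusted p of 0.0037 to 0.0076 (limma), and the one near UHRF1 0.118. The loci of opposite sign, near KPNA2, TINAG, RAB20 and TAPT1, had 0.164 to 0.745, so their signs are uncertain. The count therefore does not decide whether locus and gene keep to 1 direction.

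Correlation of each locus with its nearest gene was taken over deviations from the 6 group means, as the groups of liver and adipose form separate clusters. The 18 points of a pair share libraries and geese, so r is given as a description without p. Over 438 pairs the median r was 0.05, with quartiles of -0.25 and 0.39, against -0.07 over all pairs of these loci with any mRNA. An r of at least 0.5 was found for 18.9% of the nearest genes and 6.92% of all genes. For 13.7% of the loci the nearest gene ranked in the top 5% of all mRNAs by r, and for 7.53% in the top 1%. Pairs with the second nearest gene had a median of -0.02 (401 pairs), and loci further than 10 kb away had -0.10 with their nearest gene (311 pairs), beside -0.19 with all genes.

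The median r was highest at short gaps. Within 1 kb it was 0.21 (128 pairs, beside -0.01 with all genes), and it was -0.10 at 1 to 2.5 kb, 0.04 at 2.5 to 5 kb and -0.03 at 5 to 10 kb. Downstream loci within 1 kb had a median of 0.23, with 34.3% at an r of at least 0.5 (beside 12.3% with all genes) and 17.1% of nearest genes in the top 1%. Upstream loci within 1 kb had 0.11, with 19.0% at that r and 5.17% in the top 1%. Pairs in which both members had means above 1 FPKM gave 0.48 (63 pairs, beside 0.20 with all genes), so level went with r. Leaving out goose C2 gave 0.19 (401 pairs) and leaving out T3 gave -0.01, a change of sign for the overall median, and centring gave 0.22, beside 0.11 with all genes.

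**Figure D5:**
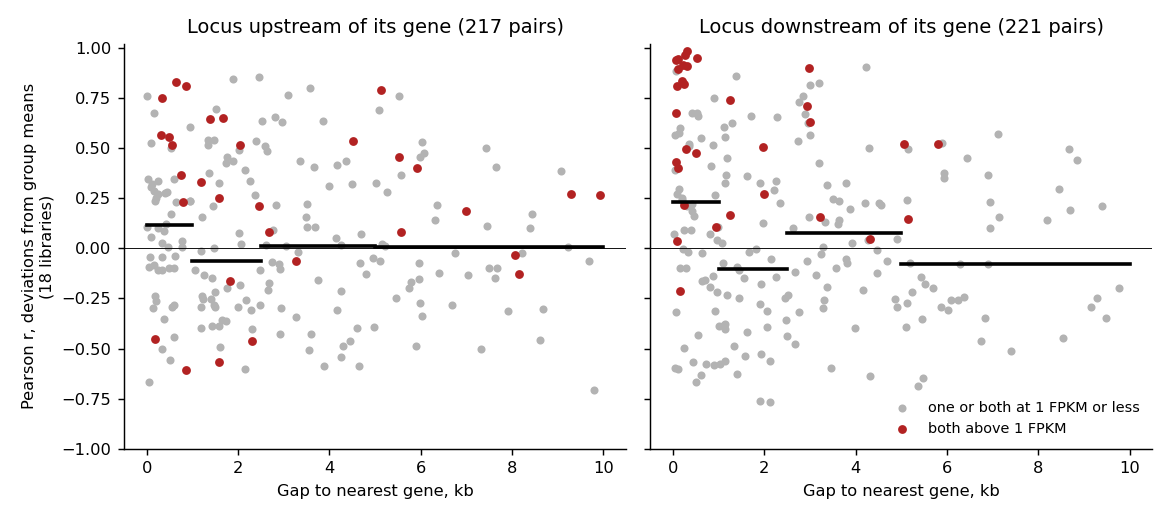
Pearson's r of deviations from group means between a locus and its nearest gene against the gap in kb, for 217 upstream and 221 downstream pairs; black lines are medians by gap class and red points pairs with both means above 1 FPKM. Medians within 1 kb were 0.11 upstream and 0.23 downstream.

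The 6 highest values among pairs above 1 FPKM all belonged to loci downstream of their gene, at 58 to 536 bp. XLOC_073964 (NW_013185667.1, 5462613 to 5466003) and LOC106031559 had r = 0.98 at a gap of 319 bp, and 0.92 or more without any 1 goose. Livers had 81.8, 47.6 and 62.5 FPKM of the locus in high-intake and 82.0, 91.6 and 93.0 FPKM in control geese, and the gene had 256, 130 and 172 FPKM in high-intake and 236, 257 and 291 FPKM in control livers. T2-L was lowest in both. Within liver r was 0.99 over 6 geese (exact permutation p = 0.0028, BH-adjusted 0.283 over 306 pairs; rho = 0.94, exact p = 0.017, adjusted 0.464) and 0.75 without the 2 geese farthest from the median.

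XLOC_232890 and UBAC1 had r = 0.95 at 536 bp. In abdominal adipose the locus had 33.3, 18.3 and 48.7 FPKM in high-intake and 24.5, 13.1 and 16.0 FPKM in control geese, and UBAC1 had 61.1, 35.8 and 75 FPKM in high-intake and 39.4, 17.8 and 23.6 FPKM in control geese. Locus and gene gave the 6 geese the same order, with r = 0.97 in that tissue (exact permutation p = 0.0028, adjusted 0.271; rho = 1.00, exact p = 0.0028, adjusted 0.217) and 0.95 without the 2 farthest. XLOC_017561 and ABHD10 (0.96, 261 bp), XLOC_116409 and LOC106034313 (0.95, 120 bp) and XLOC_357804 and SLC25A37, the mitochondrial iron importer mitoferrin (0.91, 219 bp), kept r of 0.77 or more after centring. XLOC_119043 and the histone deacetylase gene HDAC4 (0.94, 58 bp) did not, at 0.18. For XLOC_209712 and UBE2G2, r was 0.81 with all geese and 0.21 without goose C2. Without the 2 geese farthest from the median of the locus, several within-tissue values of r were low or negative. ABHD10 had 0.32 in liver, -0.79 in abdominal and 0.18 in subcutaneous adipose, against 0.91, 0.89 and 0.98 over all 6 geese. UBAC1 (0.16) and SLC25A37 (-0.58) were low in liver, and LOC106031559 (0.22) and HDAC4 (-0.63) in abdominal adipose. The other tissues of the pairs with these genes and LOC106034313 kept 0.74 to 0.99.

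The lowest values in pairs above 1 FPKM were those of XLOC_048882 with the deubiquitinase gene OTUD1 (r = -0.61, 853 bp upstream), XLOC_184458 with ASB9 (-0.57), XLOC_080387 with SLF2 (-0.46) and XLOC_254855 with ST7 (-0.45). The value for OTUD1 was -0.66 to -0.47 over fits that each left out 1 goose, whereas that for SLF2 was 0.07 without goose C2. The sign differed between tissues. Within liver, abdominal and subcutaneous adipose, feeding difference included, r was 0.99, -0.72 and -0.61 for ST7. It was 0.30, 0.48 and -0.75 for ASB9 and 0.13, -0.49 and -0.67 for OTUD1. XLOC_185365, which shares the span of XLOC_184458, had r = 0.25 with ASB9 over deviations. In liver XLOC_048882 had 1.04, 1.48 and 1.83 FPKM in high-intake and 0.980, 0.960 and 1.01 FPKM in control geese, and OTUD1 had 17.1, 4.62 and 4.29 FPKM in high-intake and 3.08, 2.36 and 1.37 FPKM in control livers. Neither overlapped between the groups there, and both were higher in high-intake livers, whereas the r of -0.61 describes the spread of birds within groups.

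Within single tissues the median r over pairs was 0.29 in liver (306 pairs, beside 0.02 with all genes), 0.24 in abdominal adipose (390 pairs, beside -0.06) and -0.10 in subcutaneous adipose (475 pairs, beside -0.20). These within-tissue values include the feeding difference. An exact permutation p under 0.05 was found for 34, 49 and 75 pairs, which were 11.1%, 12.6% and 15.8% of the pairs tested. None passed BH adjustment over the pairs of its tissue, the smallest adjusted values being 0.283, 0.271 and 0.132. The share at that p over pairs with all genes was not computed, so these counts are not a result about nearest genes. The lower median in subcutaneous adipose stood beside C2-SA, in which the loci were high and the mRNAs low, and its part was not tested.

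Of 98 annotated genes in a list of lipid genes, 7 (7.14%, beside 3.73% of all protein-coding genes) were nearest to 8 loci: ACADM (a pair of entries), ACSL6, ANGPTL4, CD36, MOGAT2, OSBPL6 and VLDLR. Of the 8 entries, 4 were tested in liver, 4 in abdominal and 6 in subcutaneous adipose, and 0 were called for feeding (limma, 1, 3 and 0 at an unadjusted p under 0.05), beside 1.23%, 0.393% and 0% of all lncRNAs in these tissues. At an unadjusted p under 0.05 the shares of all lncRNAs were 19.6%, 13.9% and 16.1% (limma). XLOC_262843, 222 bp downstream of MOGAT2, which acylates monoacylglycerol on the way to triacylglycerol, had 0.350, 0.385 and 2.03 FPKM in high-intake and 0.0218, 0.115 and 0.0530 FPKM in control abdominal adipose (2.28, SE 0.61, adjusted p = 0.188). MOGAT2 was low in that tissue, at no more than 0.346 FPKM. XLOC_337886, 2271 bp upstream of VLDLR, a receptor that takes up triacylglycerol-rich lipoproteins, had 0.699, 1.37 and 0.592 FPKM in high-intake and 0.505, 0.220 and 0.213 FPKM in control abdominal adipose (1.25, SE 0.42, adjusted p = 0.268), and VLDLR had 10.4, 9.75 and 6.27 FPKM in high-intake and 5.21, 1.87 and 2.48 FPKM in control geese (1.28, SE 0.32, adjusted p = 0.128). Both sets of values lay apart without passing the threshold.

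XLOC_142216, 4262 bp upstream of the fatty acid transporter gene CD36, showed adipose preference with little sign of feeding: at most 0.126 FPKM in livers and 0.253 to 1.43 FPKM in adipose, with log2 changes of -0.24 in abdominal and 0.49 in subcutaneous adipose (adjusted p = 0.733 and 0.665, limma). XLOC_355031 near ACADM, which opens the beta-oxidation of medium-chain fatty acids, had 0.212, 0.292 and 0.287 FPKM in high-intake and 0.742, 0.891 and 0.311 FPKM in control livers (-0.95, SE 0.40, adjusted p = 0.250), while ACADM had 124, 146 and 133 FPKM in high-intake and 112, 114 and 112 FPKM in control livers. Their deviations had r = -0.58. The locus near ANGPTL4, an inhibitor of lipoprotein lipase, had at most 0.288 FPKM in livers.

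Genes of embryonic patterning were nearest to 6 loci, of 105 annotated in a second list (5.71% of its genes), among them FOXA2, HOXA11, HOXA13, LHX8 and TBX18. Of these loci 1 was tested in liver, 2 in abdominal and 4 in subcutaneous adipose, and 0 were called for feeding (limma, 0 in each tissue at an unadjusted p under 0.05), beside the same shares of all lncRNAs. XLOC_045113, 547 bp upstream of HOXA11, was listed at 0 in all 6 livers and had 0.367 to 1.36 FPKM in the 12 adipose libraries. XLOC_136312, 3585 bp upstream of TBX18, was likewise listed at 0 in livers and had its highest adipose value, 0.982 FPKM, in C1-SA, where TBX18 was also highest at 13.4 FPKM. Over deviations this pair had r = 0.80. Of macrophage marker genes, CTSS was the nearest gene of 1 locus, XLOC_355887.

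FERMT2, an integrin activator, and RASSF8 were each the nearest gene of 1 locus. XLOC_292472, 9082 bp upstream of FERMT2, was called lower in liver in all 4 comparisons, with 0.0318 to 0.166 FPKM in livers and 0.454 to 1.40 FPKM in adipose (differences of -2.59 to -1.80, adjusted p 0.0013 to 0.0077, limma). Its feeding changes of 0.21 in abdominal and 0.87 in subcutaneous adipose had adjusted p of 0.827 and 0.304, and its deviations had r = 0.39 with FERMT2. XLOC_292762 (NW_013185815.1, 1763433 to 1766375) lies 5698 bp past the end of FERMT2 but nearer to GNPNAT1, at 944 bp. Its feeding changes were 1.07 in liver, 1.71 in abdominal and 1.29 in subcutaneous adipose (adjusted p = 0.258, 0.268 and 0.333, limma). Over deviations from group means it had r = 0.08 with FERMT2 and 0.24 with GNPNAT1. In liver both genes changed the other way, FERMT2 by -0.78 (SE 0.27, adjusted p = 0.142) and GNPNAT1 by -0.74 (SE 0.34, adjusted p = 0.234, limma). In abdominal and subcutaneous adipose FERMT2 changed by 0.43 and 0.83 and GNPNAT1 by 0.34 and 0.52. None of these gene changes was called.

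XLOC_189739, 9230 bp upstream of RASSF8, had 0.293, 0.204 and 0.248 FPKM in high-intake and 0.195, 0.110 and 0.143 FPKM in control livers. In subcutaneous adipose it had 0.208, 0.262 and 0.254 FPKM in high-intake and 0.356, 0.481 and 0.413 FPKM in control geese. The groups lay apart in opposite directions, but neither change was called (0.49 and -0.60, adjusted p = 0.405 and 0.430, limma). RASSF8 followed neither, at 3.23 to 4.46 FPKM in high-intake and 5.16 to 5.67 FPKM in control livers.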

How the data were processed

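RNA of 18 tissue samples was sequenced by the authors after removal of ribosomal RNA, and the submitters' processing notes name CASAVA 1.8.2, Bowtie2 2.11, TopHat2 2.12, Cufflinks 2.1.1 and Cuffdiff. The authors called lncRNAs among assembled transcripts by comparison with the annotation, exon number, length and coding potential, and whether strand was used in counting is not given in the sources used here. The deposited tables hold 1 value per gene and library that was read as log2(FPKM + 1), a scale inferred from the range of the values since the sources used here do not name it, and FPKM was recovered from it. The authors' FPKM is scaled per library and keeps no read totals. Columns of the authors' own fold changes and p-values were not used, and 0 per-sample columns lacked a sample. Loci and annotation genes were joined by scaffold and coordinates of AnsCyg_PRJNA183603_v1.0.

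Members and gene lists were chosen with earlier results of these data known. Levels were tested as log2(FPKM + 0.1) for lncRNAs and log2(FPKM + 1) for mRNAs, which understates changes of low genes, after a filter on a mean FPKM above 0.1 in the libraries compared. Fits used limma 3.58.1 in R 4.3.3 with a trended empirical Bayes spread and Benjamini-Hochberg adjustment over all features tested, at a threshold of 0.05. Feeding was compared within a tissue, tissues within a feeding group, and responses between tissues with the goose as a block. Correlations used Python 3.11.15 with numpy 2.4.6, pandas 2.3.3 and scipy 1.17.1, and figures matplotlib 3.10.9. The fits were tested on simulated data with 200 changed lncRNAs.

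The 3 tissues of a goose come from 1 animal, so its number pairs them. Deviations of lncRNAs from group means correlated at 0.0957 to 0.179 between liver and abdominal adipose, 0.105 to 0.147 between liver and subcutaneous adipose and 0.145 to 0.466 between the adipose tissues. Same-numbered birds of both feeding groups are different animals and were not paired in the main fits. Their deviations correlated at -0.0997 to 0.0642 for lncRNAs and at up to 0.257 for mRNAs, in subcutaneous adipose. Named loci were up to 12 called per tissue, up to 5 rises and 5 falls per tissue with a mean above 0.5 FPKM and no overlap between feeding groups, the 10 highest levels, 6 loci each way between liver and adipose, the called loci between adipose tissues, the 6 highest and 4 lowest r with both means above 1 FPKM, and neighbours of listed genes. The 6 each way had the largest differences among loci called in all 4 liver-adipose comparisons without overlap of livers and adipose libraries. Loci beside called nearest genes or at shared spans were also named. Alternatives changed the pseudocount, the filter, the scaling, the block, the largest gap (5 kb) and the libraries used. The name of 1 neighbouring gene of the patterning list is not reported here.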

Additional observations from a re-analysis of the deposited data

Results flagged for a closer look

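The feeding response of 3 loci differed between tissues in a limma fit with the goose as a block. For XLOC_233930 near RBBP8NL the response of liver minus that of abdominal adipose was -3.09 on the log2 scale (adjusted p = 0.048), with values in high-intake geese above all controls in abdominal adipose and livers at or near 0. For XLOC_307738 near GADD45G the response of liver minus that of subcutaneous adipose was 3.58 (adjusted p = 0.047), the high-intake values being above all controls in liver and below all controls in subcutaneous adipose. Its subcutaneous values were at most 0.369 FPKM, in C2-SA. For XLOC_358833 near LOC106029523 the response of liver minus that of subcutaneous adipose was 3.81 (adjusted p = 0.048), with C2-SA among the 3 high control values. None of the 3 calls held without the filter on low values, and the calls near GADD45G and LOC106029523 were also lost with a pseudocount of 1. XLOC_233930 was not called in any fit that left out 1 goose.

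XLOC_189739 near RASSF8 had every high-intake liver above every control liver and every high-intake subcutaneous library below every control one. The difference between the responses was 1.08 (SE 0.48, unadjusted p = 0.047), and at an adjusted p of 0.330 (limma) it was not called.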

How the results depend on the processing

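Counts of called loci moved by over 1.5 times in these cases. For feeding in liver the 3 loci became 0 with a pseudocount of 1, 0 without the filter, 1 after centring and 0 with the replicate number as a block, and in subcutaneous adipose the 0 became 3 after centring and 1 with the block (XLOC_025881, adjusted p = 0.029). XLOC_025881 had passed the filter through its control libraries alone. Control liver against subcutaneous adipose (178) gave 92 with a pseudocount of 1 and 54 after centring. Control abdominal against subcutaneous adipose (2) gave 0 with a pseudocount of 1 and 4 with the replicate block. The liver minus abdominal response (1) gave 0 without the filter and 4 without the block, and the liver minus subcutaneous response (2) gave 0 with a pseudocount of 1 and 0 without the filter. Nearest genes called in liver (10) became 5 without the filter, 19 after centring and 0 with the block, in abdominal adipose (1) 0, 0 and 0 under the same settings, and in subcutaneous adipose (6) 0 without the filter. Loci lower in liver in all 4 comparisons (61) became 40 with a pseudocount of 1 and 21 after centring, settings added after the data had been seen. The level difference from overlapping loci in liver was -0.0778 with means and -0.0906 within 5 kb. The median r (0.05) became 0.22 after centring and 0.48 with means above 1 FPKM, and reversed to -0.0101 without goose T3. The cause was not tested.

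Leaving out 1 library gave 0 to 1 loci for feeding in liver, 1 to 3 in abdominal and 0 to 2 in subcutaneous adipose (2 without C1-SA). Nearest genes gave 0 to 12, 0 to 9 and 1 to 15 in these tissues. Liver against abdominal adipose gave 129 to 172 in high-intake and 150 to 186 in control geese, liver against subcutaneous adipose 123 to 152 and 80 to 230, and abdominal against subcutaneous adipose 0 to 0 and 0 to 5. Leaving out 1 goose gave 0 to 2, 0 to 1 and 0 to 1 calls for the responses of liver minus abdominal, liver minus subcutaneous and abdominal minus subcutaneous adipose, and a median r of -0.0101 to 0.190. The level difference from overlapping loci was then -0.24 to -0.18 in liver, -0.84 to -0.74 in abdominal and -0.62 to -0.47 in subcutaneous adipose, and that from loci further away 0.88 to 0.96, 1.05 to 1.10 and 0.74 to 0.96. With 5 geese the exact test cannot reach 0.05. Of 860 alternative values for 86 results on named loci, 783 kept direction and side of the threshold, 72 were no longer called, 5 became called and 0 reversed. These results were picked because they were called or their groups did not overlap, which left little room for a reversal. Results not called at first count as kept when they stay so, and the tally is therefore no measure of robustness. The replicate block changed no other count by over 1.5 times. For feeding within a tissue this block groups different birds by their number, so its counts there do not stand for a pairing of animals.

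Limits are 3 geese per group, levels mostly below 1 FPKM with unknown depth, a library (C2-SA) that stands apart, and entries without strand or sequence here, so that a separate transcript and an extension of the neighbouring gene cannot be told apart. C3-SA came closest to C2-SA at low values, so leaving out C2-SA alone does not remove this limit.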
